A study of Mus musculus with 16 samples.

Results

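The core autophagy machinery and its cargo receptors are given here as 43 mouse genes out of the 55404 in the expression table, each symbol matching 1 Ensembl gene. The question is whether their transcripts shift when TECPR2, a protein that binds members of the ATG8 family, is lost. 16 male mice of 5 months, untreated and each sequenced as its own library, were compared: 8 wt/wt mice with an intact Tecpr2 gene and 8 Tecpr2 ki/ki mice in which CRISPR/Cas9 editing of C57BL/6J zygotes placed the frameshift L1152Yfs on both copies. Because the edit was made in the germ line, every cell type carries it. Each sample is a whole brain, so regions with and without pathology are pooled, and in such bulk tissue fewer cells of a type and less RNA per cell cannot be told apart.

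Macroautophagy encloses cytoplasm in a growing double membrane, the phagophore, which closes to an autophagosome and fuses with lysosomes. A kinase complex around ULK1 starts the process, a lipid kinase complex around VPS34 marks the membrane, ubiquitin-like conjugation systems attach ATG8 proteins to it, and cargo receptors link ubiquitinated material to ATG8. Neurons depend on this pathway, and their autophagosomes formed in distant axons have to travel to lysosomes near the cell body. Much of its control acts on proteins, by phosphorylation, cleavage and lipidation, which transcript levels do not show.

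Values are linear normalized read values per gene, rounded to whole numbers by the authors. They added up to 11964284 to 12252324 per mouse. The depth behind them was inferred from which whole numbers are missing or occur too often among the low values of each library. It was 9.23 to 15.39 megareads on genes (median 12.1 in ki/ki and 13.1 in wt/wt). The genotype labels were checked on Tecpr2 itself, which ranged from 274 to 320 in ki/ki mice (300.2 ± 14.1, SD, n = 8) and from 928 to 1002 in wt/wt mice (963 ± 24.4, n = 8). This is a log2 fold change (ki/ki minus wt/wt, on the log2(value + 1) scale) of -1.68, with every ki/ki mouse below every wt/wt mouse. All 8 neuronal marker genes were detected in the tissue.

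None of the 43 autophagy genes differed between genotypes at an adjusted p under 0.1 (limma, Benjamini-Hochberg over 23244 tested genes), a threshold that 31 genes, 0.133% of those tested, passed. At an unadjusted p under 0.01 the number was likewise 0 of 43, against 1.56% of all tested genes. At an unadjusted p under 0.05, 1 of 43 (2.33%) remained, Tsc1, against 6.08% of all tested genes. Tsc1 was higher in ki/ki mice, where 3.07% of all genes were at this level, and 0 of 43 were lower, where 3.01% of all genes were. The ranges of the genotypes overlapped for all 43, while 0.086% of tested genes had ranges that did not overlap. All 43 passed the filter on low values, and 40 of them had a mean above 90.8, the median of the tested genes.

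The differences themselves were small. The log2 fold change had a median of 0.00 over the 43 genes and ran from -0.14 (Atg4a) to 0.06 (Tsc1), with 23 of 43 (53.5%) above 0, against 49.5% of all tested genes. The median size of the log2 fold change, regardless of sign, was 0.03 over the autophagy genes and 0.03 over the 12678 genes whose means lay within the same range. Since a p above the threshold does not show that values were equal, the 95% intervals of the log2 fold change are given: they lay within 0.1 of 0 for 21 of 43 genes, against 17.1% of all tested genes, and within 0.2 of 0 for 40 of 43, against 43%. The tested genes include many with low levels, whose intervals are wide. The lowest bound of any of the 43 intervals corresponded to -21.5% (Atg4a) and the highest to 18.4% (Vamp8). The values of the 43 genes summed to 36247 to 36884 per ki/ki mouse (median 36369.5) and to 35917 to 36731 per wt/wt mouse (median 36424).

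**Figure D1:**
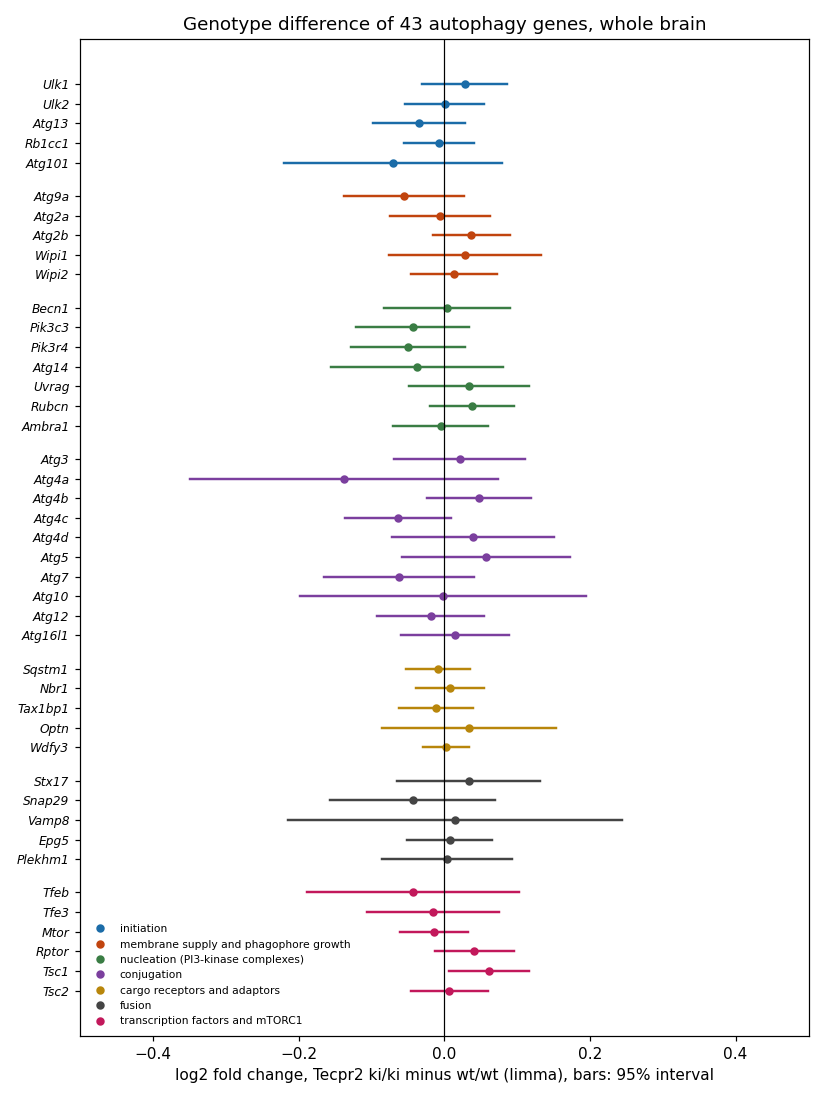
Log2 fold change (x axis, ki/ki minus wt/wt, limma) of each of the 43 autophagy genes (y axis, coloured by role), where points are estimates and bars 95% intervals. The estimates lie between -0.14 and 0.06, and the interval of Tsc1 alone does not reach 0.

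A sequence element that ties many lysosomal genes to TFEB and TFE3 is the E-box CACGTG, which reads the same on both strands. The 250 bases before each start in the RefSeq promoter table (GRCm38.p6), which lists more than 1 start for some genes, were searched for these 6 letters, with overlapping matches allowed. The table held 36 of the 43 autophagy genes. Of these, 4 contained the motif (11.1%), compared with 1854 of 27025 genes in the table (6.86%). Among genes listed as lysosomal targets of TFEB, a list made of known targets, 11 of 19 (57.9%) contained it. The windows of the 4 autophagy genes are shown because they are the places in these promoters where this motif occurs. Capitals mark the motif, and each run is written 5′ to 3′ on the gene's own strand.
Atg3, plus strand, chr16:45158723-45158752: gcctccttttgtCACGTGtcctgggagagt
Atg3, plus strand, chr16:45158746-45158775: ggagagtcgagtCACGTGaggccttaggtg
Atg5, plus strand, chr10:44268313-44268338: cggagcgcttgcCACGTGgtcttggt
Atg7, plus strand, chr6:114670952-114670981: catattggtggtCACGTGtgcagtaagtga
Rubcn, minus strand, chr16:32868437-32868466: cgcctagcacatCACGTGtacccaggttag

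Atg3, Atg5 and Atg7 encode parts of the conjugation systems, and Rubcn encodes a negative regulator of the VPS34 complex. Distances are to the RefSeq start: the motif of Atg5 lies 14 bases and that of Rubcn 88 bases before it, Atg3 has a motif 94 and another 71 bases before it, and in Atg7 the motif lies 132 bases before it. These starts are not all the outermost ones of the GENCODE annotation. That of Atg7 lies 27999 bases inside the annotated gene, and 0 of its 17 annotated transcripts start within 100 bases of it, the nearest being 9066 bases away. That of Rubcn lies 9400 bases inside the gene as set by its longest transcript, while 4 of 9 annotated transcripts start within 100 bases of it. The log2 fold changes of these 4 genes were 0.02 for Atg3, 0.06 for Atg5, -0.06 for Atg7 and 0.04 for Rubcn, so the motif was present in genes on both sides of 0 and none of the 4 passed the test. A match of letters does not show that a factor binds there.

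Initiation genes encode the ULK kinase complex. Its members are the kinases Ulk1 and Ulk2, the adaptors Atg13 and Atg101 and the scaffold Rb1cc1 (also called FIP200). Log2 fold changes in this complex centred on -0.01, 2 of 5 above 0 and 3 of 5 below, and 0 of 5 had an unadjusted p under 0.05. Ulk1 ranged from 974 to 1078 in ki/ki mice (median 1061) and from 974 to 1109 in wt/wt mice (median 1032), with the ki/ki range inside the wt/wt range. Its log2 fold change was 0.03 (SE 0.03, 95% interval -0.03 to 0.09, exact two-sided permutation p = 0.324). Atg13 had the smallest p of this group, with values of 772 to 874 (median 814) against 807 to 896 (median 838). Although 3 ki/ki mice were below every wt/wt mouse, the log2 fold change of Atg13 was -0.03 (SE 0.03, 95% interval -0.10 to 0.03, exact permutation p = 0.256). Atg101, the least abundant of the 5, had a log2 fold change of -0.07 with a 95% interval of -0.22 to 0.08. Ulk2 (1251 ± 49.1 against 1250 ± 40.1, n = 8 each) and Rb1cc1 (1888 ± 58.6 against 1898 ± 64.0) had nearly the same means in both genotypes.

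Genes for membrane supply and phagophore growth encode the lipid scramblase ATG9A, the lipid transfer proteins ATG2A and ATG2B, and WIPI1 and WIPI2, which read the phosphoinositide that the VPS34 complex makes. Their median log2 fold change was 0.01, with 3 of 5 higher and 0 of 5 at an unadjusted p under 0.05. Atg2b ranged from 1189 to 1285 in ki/ki mice (median 1211.5) and from 1151 to 1245 in wt/wt mice (median 1188.5). All 8 ki/ki mice lay above the wt/wt median of Atg2b, yet only 1 lay above every wt/wt mouse. For Atg2b it was a log2 fold change of 0.04 (SE 0.03, 95% interval -0.02 to 0.09, adjusted p = 0.902 by limma with Benjamini-Hochberg adjustment, exact permutation p = 0.0584). Atg9a was at 739 ± 51.1 against 768 ± 54.9 (n = 8 each), a log2 fold change of -0.06 (95% interval -0.14 to 0.03). In the annotation, 31.8% of the exon bases of Atg9a are shared with Gm29253 on the same strand (mean value 0.44). What this overlap does to the values of Atg9a was not tested. The log2 fold changes of Atg2a, Wipi1 and Wipi2 were -0.01, 0.03 and 0.01. In Wipi1, 4 ki/ki mice lay above and 1 below all wt/wt mice, since the SD was 23.1 in ki/ki and 9.22 in wt/wt.

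Nucleation genes encode the class III PI3-kinase VPS34 (Pik3c3), its kinase-like partner VPS15 (Pik3r4), the core subunit Beclin 1 (Becn1), the exchangeable subunits ATG14 and UVRAG, the inhibitor Rubicon (Rubcn) and the scaffold AMBRA1. The median log2 fold change was -0.00, with 3 of 7 higher and 0 of 7 at an unadjusted p under 0.05. Becn1 ranged from 357 to 411 in ki/ki mice (median 380.5) and from 350 to 413 in wt/wt mice (median 385.5), ranges that nearly coincide. For Becn1 the log2 fold change was 0.00 (SE 0.04, 95% interval -0.08 to 0.09, exact permutation p = 0.962). In the annotation, 43.9% of the exon bases of Becn1 are shared with Cntd1 on the opposite strand, and Cntd1 itself had a mean value of 7.38. Rubcn had the smallest p of the 7, with values of 924 to 999 (median 974.5) against 887 to 971 (median 952). Here 4 ki/ki mice lay above every wt/wt mouse, and the log2 fold change was 0.04 (SE 0.03, 95% interval -0.02 to 0.10, exact permutation p = 0.0850). Pik3c3 and Pik3r4, whose products form 1 complex, had log2 fold changes of -0.04 and -0.05. Below all wt/wt mice lay ki/ki mice 3, 7 and 8 in Pik3c3, but ki/ki mice 2, 6 and 8 in Pik3r4. Atg14 and Uvrag, which occupy the same place in alternative complexes, had log2 fold changes of -0.04 and 0.03, and that of Ambra1 was -0.00.

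Conjugation genes formed the largest group and included the gene with the lowest log2 fold change. They encode the E1-like enzyme ATG7, the E2-like enzymes ATG3 and ATG10, the ubiquitin-like ATG12 with its partners ATG5 and ATG16L1, and 4 ATG4 proteases, which cleave ATG8 proteins before and after lipidation. The median log2 fold change was 0.01, with 5 of 10 higher, 5 of 10 lower and 0 of 10 at an unadjusted p under 0.05. The 4 proteases lay on both sides of 0, with log2 fold changes of -0.14 for Atg4a, 0.05 for Atg4b, -0.06 for Atg4c and 0.04 for Atg4d. Atg4a ranged from 48 to 74 in ki/ki mice (median 60) and from 49 to 79 in wt/wt mice (median 72). All but 1 ki/ki mouse lay below the wt/wt median of Atg4a, but at this low level the 95% interval ran from -0.35 to 0.07 (SE 0.11, exact permutation p = 0.242). Atg4c had the smallest p of the group.

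The values of Atg4c were 540, 510, 514, 538, 547, 540, 506 and 546 in ki/ki mice 1 to 8 and 542, 530, 590, 561, 564, 568, 517 and 562 in wt/wt mice 1 to 8. All 8 ki/ki mice lay below the wt/wt median of 561.5 and 3 lay below every wt/wt mouse. The log2 fold change of Atg4c was -0.06 (SE 0.04, 95% interval -0.14 to 0.01), with an unadjusted limma p of 0.0829, an adjusted p of 0.877 (Benjamini-Hochberg) and an exact permutation p of 0.0347. Atg5 ranged from 173 to 220 (median 196) against 172 to 200 (median 186), a log2 fold change of 0.06 (SE 0.06, 95% interval -0.06 to 0.17, exact permutation p = 0.218). Atg7 ranged from 258 to 317 (median 297.5) against 273 to 347 (median 304.5), a log2 fold change of -0.06 (SE 0.05, 95% interval -0.16 to 0.04, exact permutation p = 0.296). The log2 fold changes of Atg3, Atg10, Atg12 and Atg16l1 were 0.02, -0.00, -0.02 and 0.01, and the mean of Atg10 was 76 in both genotypes.

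Cargo receptors and adaptors had the smallest differences of the 7 role groups, by the median size of the log2 fold change. The 5 genes encode p62 (Sqstm1), NBR1, TAX1BP1 and optineurin (Optn), which bind ubiquitin and ATG8 proteins, and ALFY (Wdfy3), a large adaptor for aggregated protein. This median, regardless of sign, was 0.01, and 0 of 5 had an unadjusted p under 0.05. The median SE of the group, 0.023, was also the smallest of the 7, so small differences and high precision came together. Sqstm1 ranged from 2797 to 3048 in ki/ki mice (median 2831.5) and from 2672 to 3018 in wt/wt mice (median 2909.5). Of the 8 ki/ki mice, 6 lay below the wt/wt median, while the highest value of all, 3048, came from ki/ki mouse 3. The log2 fold change of Sqstm1 was -0.01 (SE 0.02, 95% interval -0.05 to 0.03, exact permutation p = 0.720), an interval of -3.55% to 2.44%. The gene shares 17.3% of its exon bases with Mrnip on the opposite strand (mean value 31.9).

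Tax1bp1 ranged from 1401 to 1612 in ki/ki mice (median 1502.5) and from 1477 to 1576 in wt/wt mice (median 1522.5), so that the ki/ki mice reached further at both ends, 2 of them above and 2 below the whole wt/wt range. This left Tax1bp1 with a log2 fold change of -0.01 (SE 0.03, 95% interval -0.06 to 0.04, exact permutation p = 0.689). Optn had the smallest p of the 5, at 178 to 226 (median 199) against 173 to 220 (median 199). This gave Optn a log2 fold change of 0.03 (SE 0.06, 95% interval -0.09 to 0.15, exact permutation p = 0.564). Nbr1 was at 1801 ± 35.3 against 1791 ± 50.6 (n = 8 each), a log2 fold change of 0.01. Wdfy3 ranged from 5471 to 5781 (median 5639) against 5495 to 5760 (median 5644.5), and its log2 fold change of 0.00 (SE 0.02, 95% interval -0.03 to 0.03, exact permutation p = 0.874) was the most precise of the 43.

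Fusion genes encode the SNARE proteins syntaxin 17 (Stx17), SNAP29 and VAMP8, the tether EPG5 and the adaptor PLEKHM1, which act where autophagosomes meet lysosomes. Their median log2 fold change was 0.01, with 4 of 5 higher and 0 of 5 at an unadjusted p under 0.05. Snap29 had the smallest p, at 183 to 249 (median 232.5) against 200 to 252 (median 234.5). One low value, 183 in ki/ki mouse 1, set the lower end, and the log2 fold change of Snap29 was -0.04 (SE 0.06, 95% interval -0.16 to 0.07, exact permutation p = 0.497) with this mouse and -0.00076 without it. Those of Stx17, Epg5 and Plekhm1 were 0.03, 0.01 and 0.00.

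Vamp8, a gene of low level, had the largest SD of log2 values between mice of the same genotype. The values were 74, 79, 74, 39, 46, 69, 55 and 83 in ki/ki mice 1 to 8 and 59, 60, 60, 63, 59, 71, 63 and 64 in wt/wt mice 1 to 8. Thus 4 ki/ki mice lay above and 3 below every wt/wt mouse, with means of 64.9 ± 16.2 and 62.4 ± 4.00 (SD, n = 8 each). Accordingly, the log2 fold change of Vamp8 was 0.01 (SE 0.11, 95% interval -0.21 to 0.24, exact permutation p = 0.693). At this level counting noise alone gives an SD of 0.18 on the log2 scale. The SD of Vamp8 within genotypes, 0.28, was 1.55 times as large, a smaller multiple than the 1.94 of Atg9a. The wt/wt SD of 4.00 was below what counting noise gives at such a mean. The difference in spread between genotypes was not tested.

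The last group holds the transcription factors Tfeb and Tfe3, which drive lysosomal and autophagy genes, the kinase Mtor with its partner Rptor, which together hold autophagy back when nutrients are present, and Tsc1 and Tsc2, whose proteins form the complex that restrains mTORC1. The median log2 fold change was -0.00, with 3 of 6 higher. Tsc1 was the 1 autophagy gene with an unadjusted limma p under 0.05. Its values were 1129, 1136, 1195, 1116, 1145, 1109, 1124 and 1213 in ki/ki mice 1 to 8 and 1056, 1089, 1073, 1132, 1097, 1085, 1151 and 1100 in wt/wt mice 1 to 8. All 8 ki/ki mice lay above the wt/wt median of 1093, and 2 lay above every wt/wt mouse. The log2 fold change of Tsc1 was 0.06 (SE 0.03, 95% interval 0.01 to 0.12), or 4.35%, with an unadjusted limma p of 0.0286, an adjusted p of 0.775 (Benjamini-Hochberg) and an exact permutation p of 0.0127. After adjustment over all genes the difference did not pass, and without ki/ki mouse 3, ki/ki mouse 8 or wt/wt mouse 1 the number of autophagy genes at an unadjusted p under 0.05 fell to 0, whereas it was 2 without wt/wt mouse 7.

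Tsc2, the partner of Tsc1, was at 1328 ± 38.1 against 1322 ± 48.1 (n = 8 each), a log2 fold change of 0.01 (95% interval -0.05 to 0.06). Rptor ranged from 1073 to 1169 in ki/ki mice (median 1108) and from 1044 to 1114 in wt/wt mice (median 1084.5), with 4 ki/ki mice above every wt/wt mouse. Its log2 fold change was 0.04 (SE 0.03, 95% interval -0.01 to 0.10), with an unadjusted limma p of 0.132, an adjusted p of 0.897 (Benjamini-Hochberg) and an exact permutation p of 0.0336. Tsc1, Rptor and Atg4c were the 3 of 43 genes with an exact permutation p under 0.05 before any adjustment (6.98%, against 5.77% of all tested genes), where the smallest p possible with 8 against 8 mice is 0.000155. Mtor was at 1800 ± 56.8 against 1818 ± 33.2 (log2 fold change -0.01). Tfeb ranged from 122 to 152 (median 144) against 125 to 184 (median 139.5), a log2 fold change of -0.04 (SE 0.07, 95% interval -0.19 to 0.10, exact permutation p = 0.6005), and that of Tfe3 was -0.02.

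**Figure D2:**
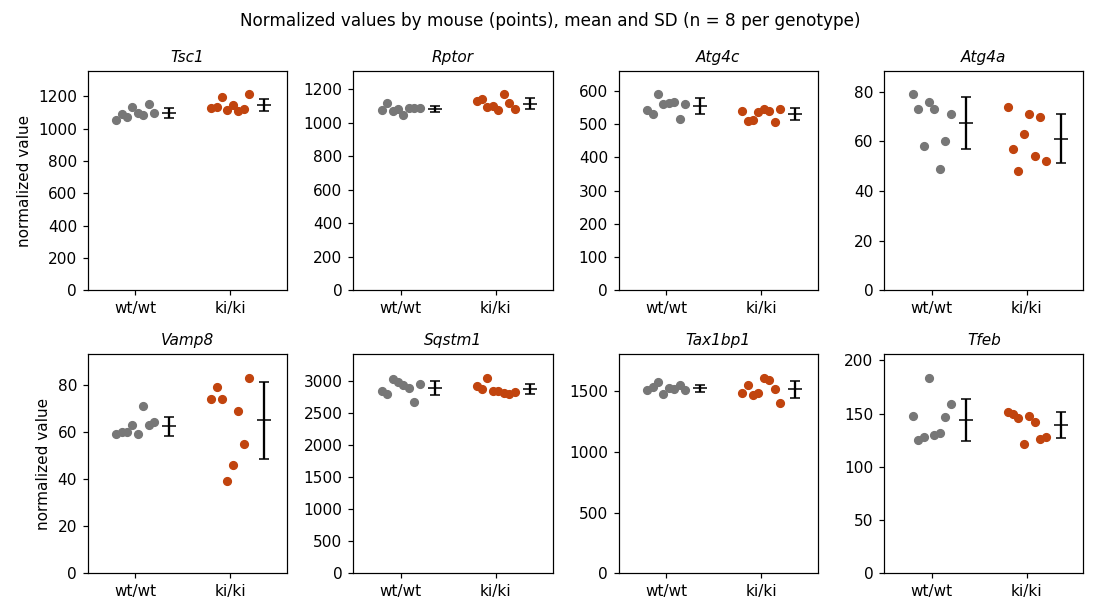
Normalized values (y axis, linear, from 0) of 8 autophagy genes in each wt/wt mouse (grey) and each ki/ki mouse (orange), with the mean and SD beside the points (n = 8 per genotype). The genotypes overlap in every panel, and in Vamp8 the ki/ki mice spread from 39 to 83 while the wt/wt mice lie between 59 and 71.

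Levels between genes were compared per kilobase of annotated exon. Sqstm1 was the highest at 857 ± 28.5 per kb (SD over 16 mice), followed by Wdfy3 at 367 ± 5.56, Nbr1 at 261 ± 6.18 and Ulk2 at 209 ± 7.25. The ranges of these neighbours did not overlap, so that 3 of the 5 cargo receptors and adaptors headed the order. From Ulk2 downward, each gene overlapped with the next. The lowest levels per kb were those of Vamp8 (27.5 ± 4.96), Tfeb (25.0 ± 2.85) and Atg4a (24.1 ± 3.87), which do not differ beyond their spread. The union of all annotated exons was used as length, which understates genes whose long forms are little used.

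**Figure D3:**
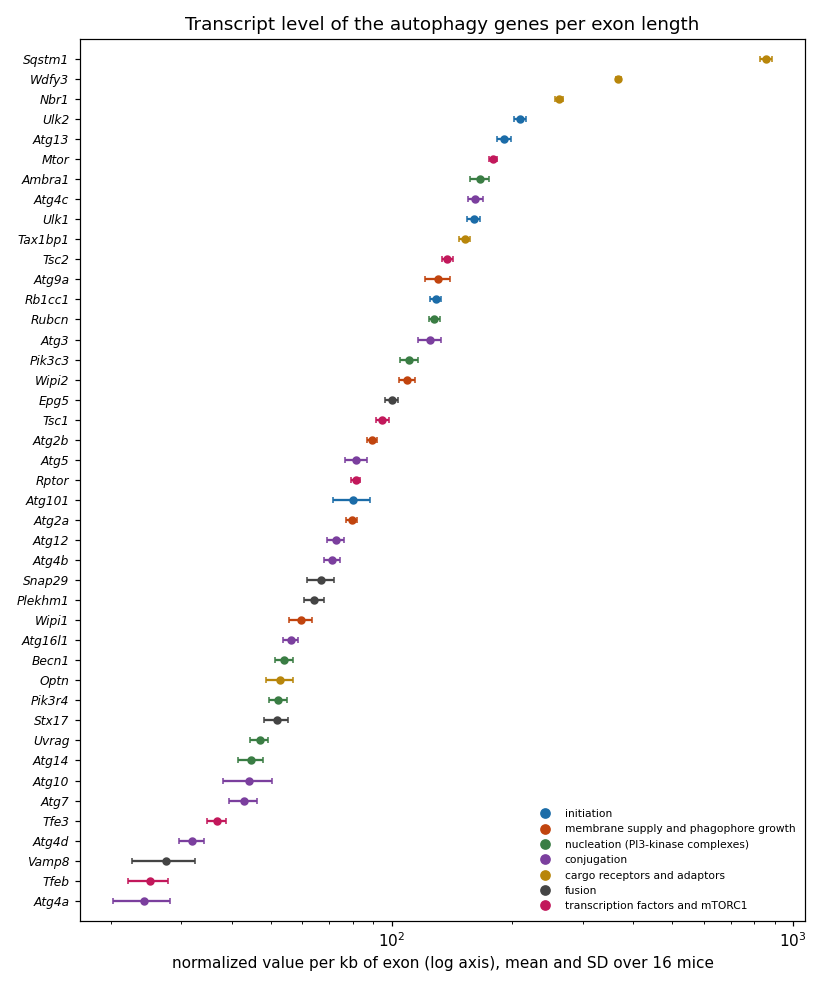
Mean normalized value per kilobase of exon (x axis, log scale) of the 43 autophagy genes in descending order (y axis, coloured by role), with the SD over 16 mice as bars. Sqstm1 (857), Wdfy3 (367) and Nbr1 (261) stand at the top and Atg4a (24.1) at the bottom.

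Variation between mice of the same genotype was low. The SD of the log2 values had a median of 0.07 over the 43 genes, from 0.02 in Wdfy3 to 0.28 in Vamp8. The median of the 12678 genes in the same range of means was 0.09. These genes were not matched to the 43 by level within that range, so a difference in level may enter this comparison. Set against the counting noise at the estimated depth, the SD was 1.15 times as large in the median gene, from 0.811 times in Rptor to 1.94 times in Atg9a, and it was above the counting noise in 37 of 43. Among the more abundant genes, Sqstm1 (1.84 times) and Ambra1 (1.76 times) had an SD well above it. Across the 16 mice, after removal of the genotype means, the 903 pairs of genes had a median Pearson correlation of -0.01, as a description. It ran from -0.80 for Rb1cc1 with Rubcn to 0.71 for Atg2b with Tfeb, with 23 pairs above 0.5 and 28 below -0.5. The genes of a pair share the library and its normalization. No mouse was shifted as a whole, as the median deviation of the 43 genes from their genotype means was between -0.02 and 0.03 on the log2 scale in every mouse.

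**Figure D4:**
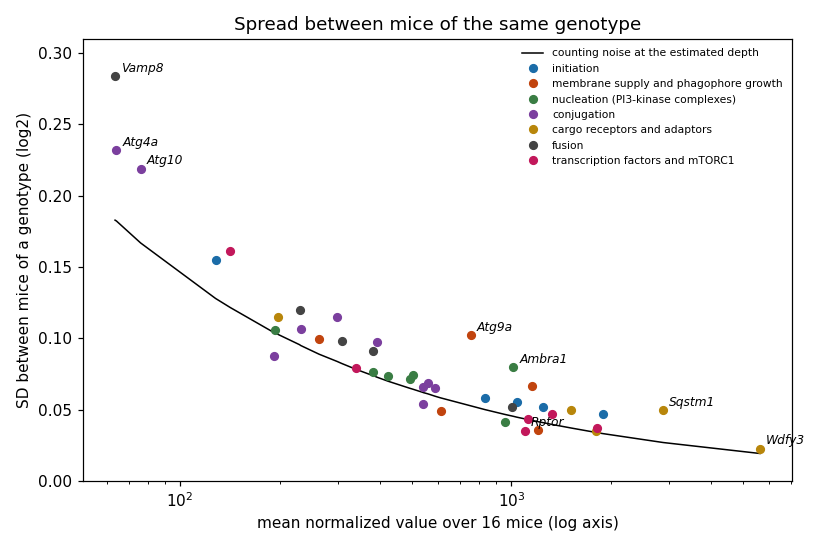
SD of log2 values between mice of the same genotype (y axis) against the mean normalized value over 16 mice (x axis, log scale), 1 point per autophagy gene coloured by role, with the line showing counting noise at the estimated depth. Most points lie on or just above the line, and Vamp8 (0.28) and Wdfy3 (0.02) mark the ends.

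Beyond the 43 genes, 79 others of the pathway and its surroundings were tested. Of these, 1 of 79 passed an adjusted p under 0.1, against 0.133% of all tested genes. At an unadjusted p under 0.05, 6 of 79 were higher and 4 of 79 lower. Of all tested genes, 3.07% were higher and 3.01% lower at this threshold, shares that also stand beside the smaller lists below. The genes named here outside the 43 were picked after their values were seen. The gene that passed was Ctsd, which encodes the lysosomal protease cathepsin D. Its values ranged from 1412 to 1527 in ki/ki mice (median 1467.5) and from 1280 to 1411 in wt/wt mice (median 1324), without overlap, a log2 fold change of 0.13 (SE 0.03, adjusted p = 0.00950 by limma with Benjamini-Hochberg adjustment). Ctsd is 1 of 24 lysosomal genes listed as TFEB targets. In that list 18 of 24 log2 fold changes were above 0, against 49.5% of all tested genes, and their median was 0.03. Only Ctsd was called, 1 of 24. At an unadjusted p under 0.05, 3 of 24 were higher, Ctsd and Hexa (log2 fold change 0.10) among them, and 0 of 24 were lower. The transcripts of Tfeb and Tfe3, known regulators of these targets, had log2 fold changes of -0.04 (SE 0.07) and -0.02 (SE 0.05). Each was smaller in size than its SE. Whether the activity of the 2 proteins differed between genotypes, or had a part in the values of these targets, was not tested. The 5 ATG8 genes, whose proteins coat the autophagosome, had a median of -0.00, from -0.02 for Gabarapl2 to 0.04 for Map1lc3b, and 0 of 5 were at an unadjusted p under 0.05. Of 10 HOPS subunits and fusion partners, 0 were called by limma, and 2 were lower at an unadjusted p under 0.05, the tethering subunit Vps41 (log2 fold change -0.06) and the SNARE Vti1b (-0.08). Among 10 other autophagosome formation genes, 6 other selective autophagy receptors and 24 other mTORC1 and AMPK genes, 0 were called at an adjusted p under 0.1 by limma, and 2, 0 and 3 of them had an unadjusted p under 0.05. These were Atg16l2 (log2 fold change 0.10) and Tmem41b (-0.08) among the first, and Mlst8 (0.14), an mTOR-binding subunit, Fnip2 (0.08) and Prkaa1 (-0.09), a catalytic subunit of AMPK, among the last.

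Several markers of microglia and astrocytes moved with the genotype in the same libraries. Of 10 microglial markers, 9 were higher in ki/ki mice, 7 of them at an unadjusted limma p under 0.05. Csf1r (log2 fold change 0.02), Tmem119 (0.05) and Aif1 (-0.01) were outside those 7. The 4 called were Mpeg1, C1qa, C1qb and Ctss. The summed value of the 10 was 3065 to 3262 against 2615 to 2935, without overlap. Of 8 astrocyte markers, 7 were higher, 4 of them at an unadjusted limma p under 0.05. The 3 called were Gfap, Aqp4 and Slc1a2, and Gja1 was not higher (log2 fold change -0.00). The astrocyte sums were 63682 to 66162 against 60038 to 63491, again without overlap. Slc1a2 alone, with means of 45610 in ki/ki and 43648 in wt/wt mice, made up most of the astrocyte sums. No marker of neurons, oligodendrocytes, their precursors, endothelium, choroid plexus or blood was called by limma at an adjusted p under 0.1. Of all tested genes, 0.133% were called at this threshold and 6.08% had an unadjusted p under 0.05. Of 8 neuronal markers, 7 were lower in ki/ki mice, 1 of them (Syt1, log2 fold change -0.03) at an unadjusted p under 0.05, and the sums overlapped (44935 to 47625 against 44960 to 49036). Of 5 choroid plexus markers, 4 were lower, 2 of them (Ttr, -0.09, and Folr1, -0.31) at an unadjusted p under 0.05, with sums of 4197 to 4824 against 4692 to 5329. The part of these shifts in the values of Ctsd, Tsc1 or any other gene above was not tested.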

How the data were processed

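Whole brain RNA of 16 mice was sequenced by the authors as stranded, ribosomal RNA-depleted paired-end libraries. The tools in the submitters' processing notes are Trim Galore 0.6.10, cutadapt 3.4, STAR 2.7.10b and DESeq2 1.40.2. Reads were aligned to GRCm39 and counted per gene with summarizeOverlaps. The strand setting of the counting and the method of normalization are not given in the sources used here. The authors deposited what is treated here as a score: a table they named as linear and normalized, whose values are whole numbers that sum to nearly the same total in every mouse. The series table and the 16 tables of single mice were identical (16 of 16). Because rounding removes the counts, no count test was run.

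Groups were taken from the sample titles. A gene was tested when its values added up to more than 16 and 4 or more mice of either genotype had a value over 5. The test was limma 3.58.1 (R 4.3.3) on log2(value + 1), with genotype as the only term, variance trend, robust estimate and Benjamini-Hochberg adjustment. Fold changes on this scale are slightly understated for low genes. Single values were compared by exact two-sided permutation tests over all 12870 assignments of the 16 mice, with scipy 1.17.1 in Python 3.11.15, and figures were drawn with matplotlib 3.10.9. The limma steps were tested on simulated data. No 2 libraries agreed within counting noise (variance ratios of 1.59 to 3.23 over 120 pairs). Each library came from a separate mouse, so p-values measure the spread between mice. Litters and processing batches are not given in the sources used here.

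Gene symbols, positions, exon lengths and overlaps came from GENCODE for GRCm38, an earlier build than that of the alignment, and promoter sequences from RefSeq (GRCm38.p6). Every autophagy gene was named once. Full values were given for genes at an unadjusted p under 0.05, for the smallest p of each role, for the extremes of fold change, level and spread, and for Sqstm1, Tax1bp1, Becn1, Ulk1, Atg5, Atg7 and Tfeb. The genes, lists and markers were chosen with earlier results of these data known. Alternatives were another pseudocount, no filter, scaling to the same total, quantile normalization, a replicate block, no robust estimate, and leaving out each mouse. The values of 1 gene of the pathway and marker lists are not reported here.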

Additional observations from a re-analysis of the deposited data

Results flagged for a closer look

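For the 43 autophagy genes and Tecpr2, the highest and lowest value of each genotype were compared with the other 7 mice, and 6 of 88 groups of 8 held a value whose gap to the next was too large a part of the range of the group by Dixon's 95% critical value. Chance gives about 1 in 20 groups. Pik3c3 was highest in wt/wt mouse 8 at 554, with the next at 505. Atg16l1 was lowest in the same mouse at 476, with the next at 530. Atg3 was highest in ki/ki mouse 8 at 451, with the next at 403. Sqstm1 was highest in ki/ki mouse 3 at 3048, with the next at 2914. Snap29 was lowest in ki/ki mouse 1 at 183, with the next at 218. Vamp8 was highest in wt/wt mouse 6 at 71, with the next at 64.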

How the results depend on the processing

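Under 23 alternatives, the 43 genes gave 989 log2 fold changes, of which 921 kept their sign and 68 changed it. The sign changed in 18 genes, whose log2 fold change was at most 0.04 in size, and never in the other 25. The number of autophagy genes called at an adjusted p under 0.1 was 0 in each of the 23, with a lowest adjusted p (limma) of 0.651. Quantile normalization turned Rb1cc1 to 0.0010, Ambra1 to 0.0038 and Sqstm1 to 0.0045, and scaling to the same total turned Atg10 to 0.0024. The median over the genes was 0.0019, and it was 0.0058 with the same total and 0.0045 with quantile normalization. Dropping 1 mouse at a time put the number of genes at an unadjusted p under 0.05 between 0 and 2, the median between -0.0030 and 0.0080 and the log2 fold change of Tecpr2 between -1.69 and -1.66, and the 18 genes whose sign changed ran as follows: Ulk2 from -0.0112 to 0.0109, Rb1cc1 from -0.0155 to 0.0041, Atg2a from -0.0181 to 0.0029, Wipi2 from -0.0072 to 0.0264, Becn1 from -0.0136 to 0.0205, Ambra1 from -0.0299 to 0.0135, Atg3 from -0.0065 to 0.0490, Atg10 from -0.0580 to 0.0584, Atg16l1 from -0.0104 to 0.0274, Sqstm1 from -0.0243 to 0.00077, Tax1bp1 from -0.0246 to 0.0042, Wdfy3 from -0.0033 to 0.0080, Vamp8 from -0.0416 to 0.11, Epg5 from -0.0070 to 0.0173, Plekhm1 from -0.0232 to 0.0220, Tfeb from -0.0703 to 0.0089, Tfe3 from -0.0314 to 0.0046, Tsc2 from -0.0017 to 0.0186. Depth limits the low genes, where counting noise alone gives an SD of 0.18 on the log2 scale in Vamp8. The sample titles do not say whether equal replicate numbers mark pairs of mice. Over 13759 genes, deviations of same-numbered mice correlated at 0.15 for replicate 3 and between -0.04 and 0.04 for the other numbers. Of the 8 numbers, 3 matched their own number best. Whether some numbers share a litter or batch was not tested. A fit with this replicate block called 0 autophagy genes, found 1 at an unadjusted p under 0.05 and kept a median of 0.0019.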
